A study of Mus musculus with 26 samples.

Results

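The bile acid and sterol transporters of mouse liver were described as 10 genes, chosen by name and matched by Ensembl ID, of the 55642 gene rows in the table. They comprised 3 uptake carriers (Slc10a1, Slco1a1 and Slco1b2), 5 exporters of the canalicular membrane, which faces the bile (Abcb11, Abcc2, Abcb4, Abcg5 and Abcg8), and 2 exporters of the basolateral membrane, which faces the blood (Abcc3 and Abcc4). All 10 passed the filter on low counts. RNA sequencing was done on 26 liver libraries from mice. The groups were Mtarc1 homozygous knockout on CDAHFD (n = 8), Mtarc1 heterozygous knockout on CDAHFD (n = 7), wildtype on CDAHFD (n = 6) and wildtype on control chow (n = 5). CDAHFD is a high-fat diet with defined L-amino acids and no choline, given for 2 weeks before RNA was taken. Mtarc1 codes for a molybdenum enzyme of the outer mitochondrial membrane. No knockout liver on chow was analysed, so a genotype difference on CDAHFD cannot be told apart from one already present on chow. The strain, sex and age of the mice and the cells in which the allele was deleted are not given in the labels.

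Bile acids are made from cholesterol in hepatocytes, secreted into bile, taken up from the gut and returned to the liver in portal blood. Slc10a1 (the sodium-taurocholate cotransporter) and the Slco carriers take them out of the blood, and Abcb11 (the bile salt export pump) moves them across the canalicular membrane. Abcb4 brings phosphatidylcholine, a lipid that carries choline, into bile, and Abcg5 pairs with Abcg8 to secrete cholesterol and plant sterols. Abcc2 exports conjugated bilirubin and glutathione conjugates, while Abcc3 and Abcc4 return organic anions to the blood, a route known from cholestatic liver. The bile acid receptor FXR is known to activate Abcb11 and Abcb4, the oxysterol receptor LXR activates Abcg5 and Abcg8, and NRF2, the regulator of antioxidant genes, can activate Abcc3 and Abcc4.

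The libraries held 19728398 to 29906599 estimated counts. The knockout label was checked on Mtarc1, which ran from 33.4 to 65.2 CPM (counts per M, or mega, counts of the scaled library) in homozygous livers, 111 to 208 CPM in heterozygous, 193 to 291 CPM in wildtype CDAHFD and 264 to 361 CPM in chow livers. The homozygous libraries all lay below every wildtype library. Albumin, the defining hepatocyte product, stood at 41419 to 69292 CPM in wildtype CDAHFD and 65070 to 91033 CPM in chow libraries. The library names form 2 number series, 9000 (9 libraries) and 11000 (17 libraries), and the 9000 series holds 1 of the 5 chow libraries. Differences of mean log2 CPM within each series are therefore given for members where they were far apart. They cover the diet comparison and homozygous or heterozygous against wildtype CDAHFD livers. The samples are numbered but are not said to come from different mice, so p-values cover the spread among these libraries, which may be partly technical.

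Promoter sequence is shown for the genes whose pattern the results turn on, a pair of FXR targets that moved in opposite directions (Abcb11 and Abcb4), the sterol pair that shares a start region (Abcg5 and Abcg8) and the scarce exporter that rose on the diet (Abcc4). RefSeq (build GRCm38.p6) held promoters for 9 of the 10 genes. The lines give the 250 bases before the start on the gene's own strand, 5′ to 3′, for Abcb11 at chr2:69342617-69342866 (minus strand), Abcb4 at chr5:8893471-8893720 (plus strand) and Abcc4 at chr14:118706220-118706469 (minus strand). For Abcg5 and Abcg8 they give the 109 bases between the 2 starts, chr17:84683012-84683120, on the plus strand. Capitals mark matches to the FXR inverted repeat (AGGTCA, 1 spacer base and its reverse complement) with at most 1 mismatch in Abcb11, the antioxidant core TGACNNNGC in Abcc4 and the GATA box AGATAA (here on the minus strand) between Abcg5 and Abcg8.
Abcb11: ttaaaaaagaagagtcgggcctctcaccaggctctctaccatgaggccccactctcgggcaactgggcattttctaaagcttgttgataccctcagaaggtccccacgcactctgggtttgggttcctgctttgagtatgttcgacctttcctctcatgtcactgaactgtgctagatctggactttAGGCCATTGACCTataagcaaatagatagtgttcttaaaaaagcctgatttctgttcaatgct
Abcb4: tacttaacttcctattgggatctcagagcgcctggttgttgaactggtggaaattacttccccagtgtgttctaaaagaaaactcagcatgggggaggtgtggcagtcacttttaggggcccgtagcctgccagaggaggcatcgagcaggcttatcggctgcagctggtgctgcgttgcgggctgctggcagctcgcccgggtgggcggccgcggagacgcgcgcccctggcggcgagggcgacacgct
Abcc4: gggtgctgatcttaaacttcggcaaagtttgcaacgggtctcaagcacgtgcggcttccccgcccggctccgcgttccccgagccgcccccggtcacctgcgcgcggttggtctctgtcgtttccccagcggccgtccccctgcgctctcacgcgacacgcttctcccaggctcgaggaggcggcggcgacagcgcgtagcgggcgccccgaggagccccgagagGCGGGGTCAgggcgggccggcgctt
Abcg5-Abcg8: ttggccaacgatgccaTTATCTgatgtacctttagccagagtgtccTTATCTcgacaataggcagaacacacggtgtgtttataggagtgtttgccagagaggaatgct

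Of 32536 distinct promoter windows of 250 bases, 0.0799% held the inverted repeat with at most 1 mismatch on either strand. Among the transporters, Abcb11 held it 63 to 51 bases before the start, and Slco1b2 held another match 88 to 76 bases before its start. No match to these letters was found in the Abcb4 window. The antioxidant core was found in 10.2% of all windows and in those of Abcc4 and Abcc2, where it overlaps no match of the other motifs. The GATA box was found in 9.97% of windows. Both of the matches in the 109 bases between Abcg5 and Abcg8 lie within the promoter windows of both genes, and 0.184% of windows of that length held 2 or more. The LXR direct repeat (AGGTCA, 4 spacer bases and AGGTCA again) was found in 0.0154% of windows and in none of the transporter windows, also with up to 2 mismatches, which 2.57% of windows reached. The searches covered both strands, and a match describes letters, not binding.

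**Figure D1:**
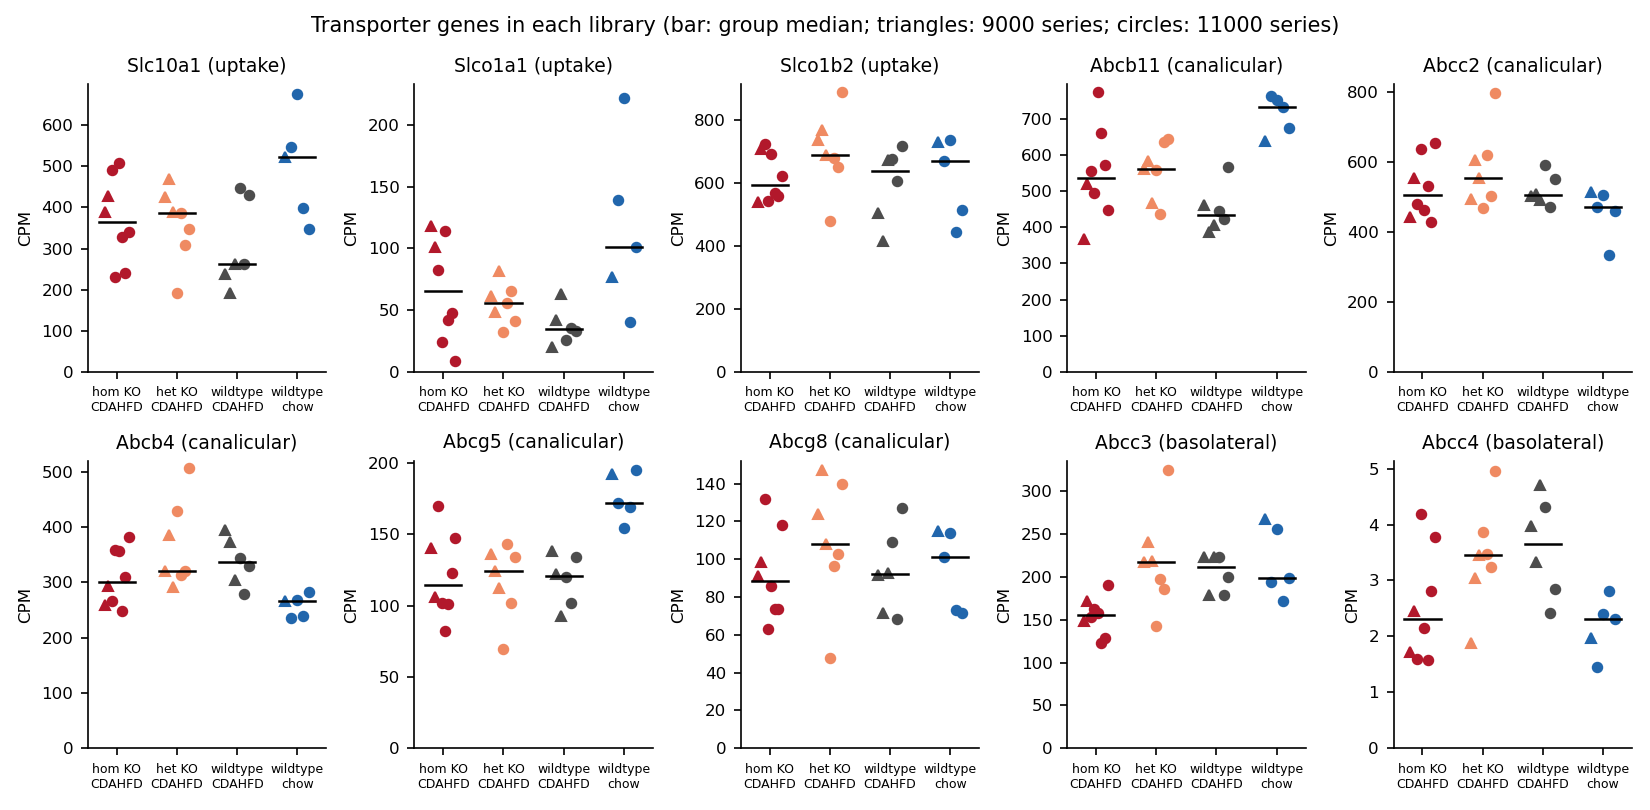
CPM of the 10 transporter genes in each of the 26 libraries (y axis, linear from 0), by group (x axis: homozygous knockout CDAHFD, heterozygous knockout CDAHFD, wildtype CDAHFD, wildtype chow). Bars are group medians, triangles the 9000 and circles the 11000 series. For Abcb11 and Abcg5 the 6 wildtype CDAHFD points lie below all 5 chow points, as for 5.93% of the genes tested.

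In wildtype liver the diet moved 6 of the 10 transporters past the test, 4 lower and 2 higher. Uptake carriers Slc10a1 and Slco1a1, the bile salt pump Abcb11 and the sterol exporter subunit Abcg5 were lower on CDAHFD, to 31.7% to 67% of their chow levels. The phospholipid flippase Abcb4 and the scarce basolateral exporter Abcc4 were higher, 1.3-fold and 1.64-fold. Among all 17104 genes tested, 27.1% were called in this comparison, 12.2% lower and 14.8% higher. A call is an adjusted p under 0.05 from edgeR's quasi-likelihood test with Benjamini-Hochberg adjustment over all genes. The median log2 fold change was -0.07 for the 10 transporters and -0.01 for all genes tested. In bulk tissue, fewer cells of a type and less RNA per cell cannot be told apart.

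Slc10a1 was the most abundant transporter per kilobase of annotated exon in every group, though not in every group by transcript length. Its lowest, median and highest levels were 230, 364 and 508 CPM in homozygous knockout livers, 192, 386 and 470 CPM in heterozygous livers and 192, 262 and 448 CPM in wildtype CDAHFD livers, and the chow livers held 522, 548, 675, 399 and 347 CPM. All 6 wildtype CDAHFD libraries were below the chow mean, and 4 of them were below every chow library, but the ranges overlap. The log2 fold change on the diet was -0.71 ± 0.24 (SE, edgeR adjusted p = 0.03008). Within the number series, the difference of mean log2 CPM was -1.19 in the 9000 series (3 against 1 library) and -0.36 in the 11000 series (3 against 4). The call was lost without any of chow replicates 1, 2 and 3 or wildtype CDAHFD replicates 1, 2, 3 and 5, with edgeR adjusted p of 0.0531 to 0.0941.

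Slco1a1, an organic anion carrier known for higher levels in male than in female mouse liver, had the widest relative spread of the 10 in homozygous, wildtype CDAHFD and chow livers, while in heterozygous livers that of Abcg8 was wider (30.2%). It reached 9.12, 65.3 and 118 CPM (lowest, median, highest) in homozygous livers, 32.6, 56.0 and 81.4 CPM in heterozygous livers and 19.8, 34.4 and 63.3 CPM in wildtype CDAHFD livers, and the chow livers held 76.5, 139, 222, 40.2 and 101 CPM. The SD was 62.7% of the mean in homozygous, 29.4% in heterozygous, 41.8% in wildtype CDAHFD and 60.0% in chow livers. On the diet it fell by 1.66 ± 0.48 on the log2 scale (edgeR adjusted p = 0.01229), with 4 of 6 wildtype CDAHFD libraries below every chow library. Within the number series the difference was -1.03 (9000) and -1.76 (11000). Without chow replicate 3, the highest library, the fold change was -1.28 and the edgeR adjusted p 0.0527.

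Slco1b2, the mouse counterpart of the human liver carriers OATP1B, ran from 540 to 723 CPM in homozygous, 480 to 888 CPM in heterozygous, 415 to 718 CPM in wildtype CDAHFD and 444 to 736 CPM in chow livers. The groups cover nearly the same range. The diet difference was -0.05 on the log2 scale, with a 95% interval of -0.37 to 0.27 (edgeR adjusted p = 0.8507), and -0.49 in the 9000 but 0.20 in the 11000 series. As a share of the summed uptake level per kilobase, Slco1b2 made up 46.1% ± 4.42 in wildtype CDAHFD and 33.8% ± 3.08 in chow livers (SD, n = 6 and 5), and Slc10a1 51.2% ± 5.46 in wildtype CDAHFD and 60.6% ± 3.20 in chow livers.

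Abcb11 gave the lowest p among the transporters on the diet. Its levels were 368, 538 and 775 CPM (lowest, median, highest) in homozygous livers, 438, 562 and 644 CPM in heterozygous livers and 386, 434 and 568 CPM in wildtype CDAHFD livers, and the chow livers held 639, 764, 752, 734 and 674 CPM. All 6 wildtype CDAHFD libraries lay below all 5 chow libraries, a separation that 5.93% of the genes tested showed in this direction. The log2 fold change was -0.67 ± 0.14 (edgeR adjusted p = 9.78e-04). The difference of means was -0.62 in each number series, and the edgeR adjusted p stayed at or below 0.00380 with any library left out.

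Abcb4, which flips phosphatidylcholine to the canalicular face, moved the other way. It reached 248, 302 and 382 CPM (lowest, median, highest) in homozygous livers, 292, 321 and 506 CPM in heterozygous livers and 279, 337 and 395 CPM in wildtype CDAHFD livers, and the chow livers held 267, 236, 268, 239 and 283 CPM. Of the wildtype CDAHFD libraries, 5 of 6 lay above every chow library. The log2 fold change was 0.38 ± 0.14 (edgeR adjusted p = 0.03883). The call was lost without any of chow replicates 1, 2 and 4 or wildtype CDAHFD replicates 1, 2 and 4, with edgeR adjusted p of 0.0542 to 0.0939.

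Within a library, the ratio of Abcb4 to Abcb11 per kilobase on the log2 scale averaged -1.68 ± 0.39 in homozygous, -1.48 ± 0.23 in heterozygous, -1.28 ± 0.26 in wildtype CDAHFD and -2.33 ± 0.20 in chow livers (SD). The wildtype CDAHFD values, -1.65 to -0.92, lay above the chow values, -2.56 to -2.12. This ratio was formed after the members' changes were known, so it is a description with no test. Its level depends on the length used, though the differences between groups do not. By the longest coding transcript, Abcb4 and Abcb11 stood at 82.7 and 89.2 CPM per kilobase in wildtype CDAHFD livers, with overlapping ranges. In chow livers they then stood at 63.4 and 142.

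**Figure D2:**
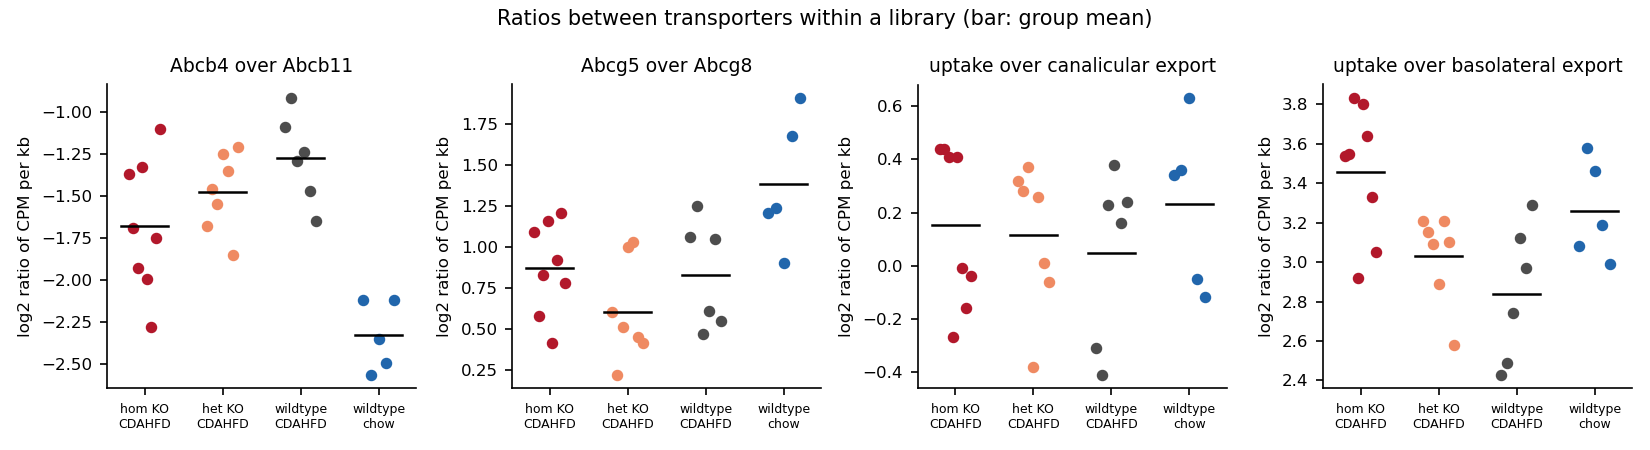
Log2 ratios of CPM per kilobase within each library (y axes differ between panels and do not start at 0) by group (x axis, homozygous knockout CDAHFD to wildtype chow from left to right), with bars at group means. Abcb4 over Abcb11 lies higher in all 6 wildtype CDAHFD libraries than in the 5 chow libraries, and uptake over canalicular export covers similar ranges in the 4 groups.

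Of the sterol pair, Abcg5 was called lower on the diet and Abcg8 was not called. Abcg5 reached 82.4, 115 and 170 CPM (lowest, median, highest) in homozygous livers, 69.5, 124 and 143 CPM in heterozygous livers and 92.5, 121 and 138 CPM in wildtype CDAHFD livers, and the chow livers held 192, 172, 154, 169 and 195 CPM. Every wildtype CDAHFD library was below every chow library, as for 5.93% of the genes tested. The log2 fold change was -0.58 ± 0.17 (edgeR adjusted p = 0.01063), a call kept with each of the 26 libraries left out in turn. Abcg8, its partner, ran from 62.9 to 132 CPM in homozygous, 48.0 to 147 CPM in heterozygous, 68.3 to 127 CPM in wildtype CDAHFD and 71.8 to 115 CPM in chow livers. The Abcg8 ranges overlap, and its diet difference was -0.03 with a 95% interval of -0.49 to 0.43, and -0.45 in the 9000 but 0.15 in the 11000 series. The log2 ratio of Abcg5 to Abcg8 per kilobase averaged 0.83 ± 0.33 in wildtype CDAHFD and 1.39 ± 0.40 in chow livers (SD, n = 6 and 5). That the diet acted differently on the 2 genes was not tested. In the GRCm38 annotation, Abcg5 (chr17:84658234-84683011, minus strand) and Abcg8 (chr17:84676302-84700333, plus strand) overlap by 6710 bases. Both positions are whole gene spans, introns included, and this Abcg8 span begins before the RefSeq start used for the promoter lines. All annotated exons of Abcg5 cover 2712 bases, so any shared exon sequence is shorter than the overlap, and its length was not counted. The sources used here do not state if strand was used in the counting. Reads in shared exon sequence, if any, could therefore be split between the 2 genes, and the size of this effect was not tested.

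Abcc2, the exporter of conjugates into bile, ran from 430 to 656 CPM in homozygous, 469 to 799 CPM in heterozygous, 471 to 593 CPM in wildtype CDAHFD and 333 to 515 CPM in chow livers. Its diet difference was 0.19 with a 95% interval of -0.10 to 0.47 (edgeR adjusted p = 0.3426), with -0.04 in the 9000 and 0.29 in the 11000 series, and all 6 wildtype CDAHFD libraries were above the chow mean. When libraries were scaled by their raw totals, Abcc2 was called higher at 0.42 and Abcg5 at -0.35 was no longer called (edgeR adjusted p = 0.0174 and 0.0613), while Slc10a1 at -0.48 was not called either (0.0749). Under it the differences of Slco1b2, Abcg8 and Abcc3, called under neither scaling, stood at 0.18, 0.20 and 0.15. That scaling moved the median of all genes to 0.22, and the calls over all genes to 5368 higher and 704 lower, against 2537 higher and 2093 lower with TMM scaling.

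On the basolateral side, Abcc3 did not pass the test on the diet. Its levels were 123, 156 and 191 CPM (lowest, median, highest) in homozygous livers, 143, 217 and 325 CPM in heterozygous livers and 179, 212 and 223 CPM in wildtype CDAHFD livers, and the chow livers held 267, 194, 256, 172 and 199 CPM. The wildtype CDAHFD range lies within the chow range, and the difference was -0.09 with a 95% interval of -0.40 to 0.23 (edgeR adjusted p = 0.7084), with -0.37 in the 9000 and -0.02 in the 11000 series.

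Abcc4, which exports bile acids, cyclic nucleotides and drugs, was scarce, with 30 to 146 counts in a library. It reached 1.58, 2.30 and 4.18 CPM (lowest, median, highest) in homozygous livers, 1.88, 3.46 and 4.96 CPM in heterozygous livers and 2.41, 3.65 and 4.70 CPM in wildtype CDAHFD livers, and the chow livers held 1.98, 1.46, 2.40, 2.81 and 2.32 CPM. Of the wildtype CDAHFD libraries, 5 of 6 lay above every chow library. The log2 fold change was 0.71 ± 0.26 (edgeR adjusted p = 0.04214), with differences of 0.97 in the 9000 and 0.48 in the 11000 series. The call was lost without any of chow replicates 1, 2, 3 and 5 or wildtype CDAHFD replicates 1, 3 and 4 (edgeR adjusted p of 0.0523 to 0.123), and with limma voom (adjusted p = 0.0511). In the 11000 series alone, a setting chosen after seeing the data, Abcb11 was the 1 transporter called on the diet, with fold changes of -0.54 for Abcg5 (edgeR adjusted p = 0.144), 0.51 for Abcc4 (0.345), 0.31 for Abcb4 (0.277), -1.99 for Slco1a1 (0.0663) and -0.37 for Slc10a1 (0.469). Over all genes, 2263 were called in that series, against 4630 with both.

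**Figure D3:**
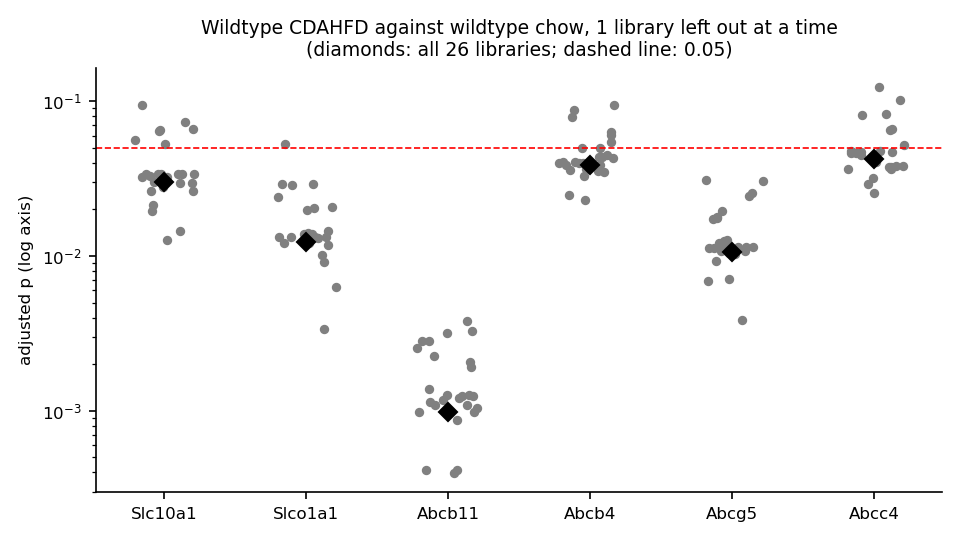
Adjusted p (y axis, log scale) of the 6 transporters called in wildtype CDAHFD against wildtype chow (x axis), with 1 of the 26 libraries left out at a time (grey) and with all libraries (black diamonds). The dashed line is 0.05. The Abcb11 and Abcg5 points all lie below it, while Slc10a1, Slco1a1, Abcb4 and Abcc4 have 7, 1, 6 and 7 points above it.

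Summed levels were similar for uptake carriers and canalicular exporters and far lower for basolateral exporters. Per kilobase of exon, the uptake carriers summed to 306 ± 66.8 CPM in homozygous, 316 ± 62.2 CPM in heterozygous, 267 ± 68.6 CPM in wildtype CDAHFD and 374 ± 93.8 CPM in chow livers (SD). The canalicular exporters summed to 271 ± 22.6 CPM per kilobase in homozygous, 287 ± 37.8 in heterozygous, 252 ± 27.3 in wildtype CDAHFD and 310 ± 13.2 in chow livers. The basolateral exporters summed to 27.6 ± 3.95 CPM per kilobase in homozygous, 38.9 ± 9.96 in heterozygous, 36.5 ± 3.93 in wildtype CDAHFD and 38.5 ± 7.30 in chow livers, nearly all of it Abcc3. On the log2 scale, uptake over canalicular export averaged 0.15 ± 0.30 in homozygous, 0.12 ± 0.27 in heterozygous, 0.05 ± 0.33 in wildtype CDAHFD and 0.23 ± 0.32 in chow livers, differences smaller than the SD. Uptake over basolateral export averaged 3.46 ± 0.33 in homozygous, 3.03 ± 0.23 in heterozygous, 2.84 ± 0.35 in wildtype CDAHFD and 3.26 ± 0.25 in chow livers, and the ranges of the groups overlap. Basolateral over canalicular export averaged -3.30 ± 0.21 in homozygous, -2.92 ± 0.21 in heterozygous, -2.79 ± 0.18 in wildtype CDAHFD and -3.03 ± 0.23 in chow livers. The homozygous libraries, -3.65 to -3.09, lay below the wildtype CDAHFD libraries, -3.05 to -2.51, without overlap, a description with no test. They overlapped the heterozygous libraries, -3.27 to -2.64, and the chow libraries, -3.24 to -2.74. The ratio is formed from the same values as the member genes, so it adds no support to their differences.

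Ordered by level per kilobase in chow liver, Slc10a1 (227 CPM per kilobase) stood above Abcb11 (138), with no overlap of their ranges. Abcb11 and Slco1b2 (125) overlapped, as did each of the next neighbours down to Slco1a1, namely Abcg5 (65.1), Abcc2 (53.6), Abcc3 (38.2), Abcb4 (27.6), Abcg8 (25.4) and Slco1a1 (21.9), with a gap between Slco1b2 and Abcg5. Abcc4 (0.344) lay below all others without overlap in every group. In wildtype CDAHFD liver the order was Slc10a1 (139), Slco1b2 (121), Abcb11 (87.1), Abcc2 (60.9), Abcg5 (43.6), Abcb4 (36.0), Abcc3 (35.9), Abcg8 (24.9) and Slco1a1 (6.94). The gaps without overlap there were between Abcb11 and Abcc2, Abcc2 and Abcg5, and Abcg8 and Slco1a1. With the longest coding transcript as the length, Slco1b2 (181) stood above Slc10a1 (175) in wildtype CDAHFD liver, as in heterozygous liver (211 and 206), and Abcb4 (82.7) above Abcc2 (64.8).

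Loss of Mtarc1 on the diet moved no transporter past the test. In homozygous against wildtype CDAHFD livers, edgeR called 0 of the 10, against 0.00585% of all genes, which was Mtarc1 itself (log2 fold change -2.27 ± 0.15). At an unadjusted p under 0.05 there were 3 of the 10, against 9.97% of all genes, and DESeq2 and limma voom also called 0 of the 10. Those 3 were Abcc3 (-0.40 ± 0.14), Abcb11 (0.29 ± 0.13) and Abcc4 (-0.50 ± 0.22), with edgeR adjusted p of 0.2933, 0.4339 and 0.4389. For Abcc3, 7 of 8 homozygous libraries lay below every wildtype CDAHFD library, and the difference of means was -0.37 in the 9000 and -0.40 in the 11000 series. For Abcb11, 7 of 8 homozygous libraries were above the wildtype CDAHFD mean, with differences of 0.07 in the 9000 and 0.28 in the 11000 series. For Abcc4 they were -0.92 in the 9000 and -0.30 in the 11000 series.

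The other 7 had 95% intervals that include 0 in this comparison. Slco1a1 stood at 0.88 with the widest interval, -0.02 to 1.78, and 4 of 8 homozygous libraries lay above every wildtype CDAHFD library, with 1.54 in the 9000 and 0.36 in the 11000 series. Slc10a1 stood at 0.27 (-0.17 to 0.72), with a difference of means of 0.84 in the 9000 series and -0.12 in the 11000 series. Slco1b2 (0.05, -0.24 to 0.33), Abcc2 (0.01, -0.24 to 0.26), Abcb4 (-0.13, -0.38 to 0.12) and Abcg5 (0.04, -0.27 to 0.34) had the narrowest intervals, and Abcg8 stood at -0.02 (-0.43 to 0.39). For Slco1b2, Abcb4 and Abcg8 the values within the 9000 and 11000 series were 0.25 and -0.12, -0.36 and -0.00, and 0.16 and -0.16. The intervals do not show that these levels were equal. Of the cell type markers, edgeR called 0 in this comparison. Stellate markers were below 0 in 6 of 6, with 4 at an unadjusted p under 0.05, and summed to 193 to 280 CPM in homozygous and 276 to 360 CPM in wildtype CDAHFD livers. Macrophage markers were below 0 in 7 of 8, with 3 at an unadjusted p under 0.05, and summed to 292 to 510 CPM in homozygous and 423 to 635 CPM in wildtype CDAHFD livers. Endothelial markers were below 0 in 6 of 6 and hepatocyte markers above 0 in 6 of 6, with 0 of either at an unadjusted p under 0.05. Cholangiocyte, lymphocyte and small intestine markers were below 0 in 3 of 7, 3 of 4 and 1 of 3, with 0, 1 and 0 at that threshold. Among all genes tested, 8283 of 17104 were below 0 and 9.97% had an unadjusted p under 0.05. The part of these markers in the transporter values was not tested.

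**Figure D4:**
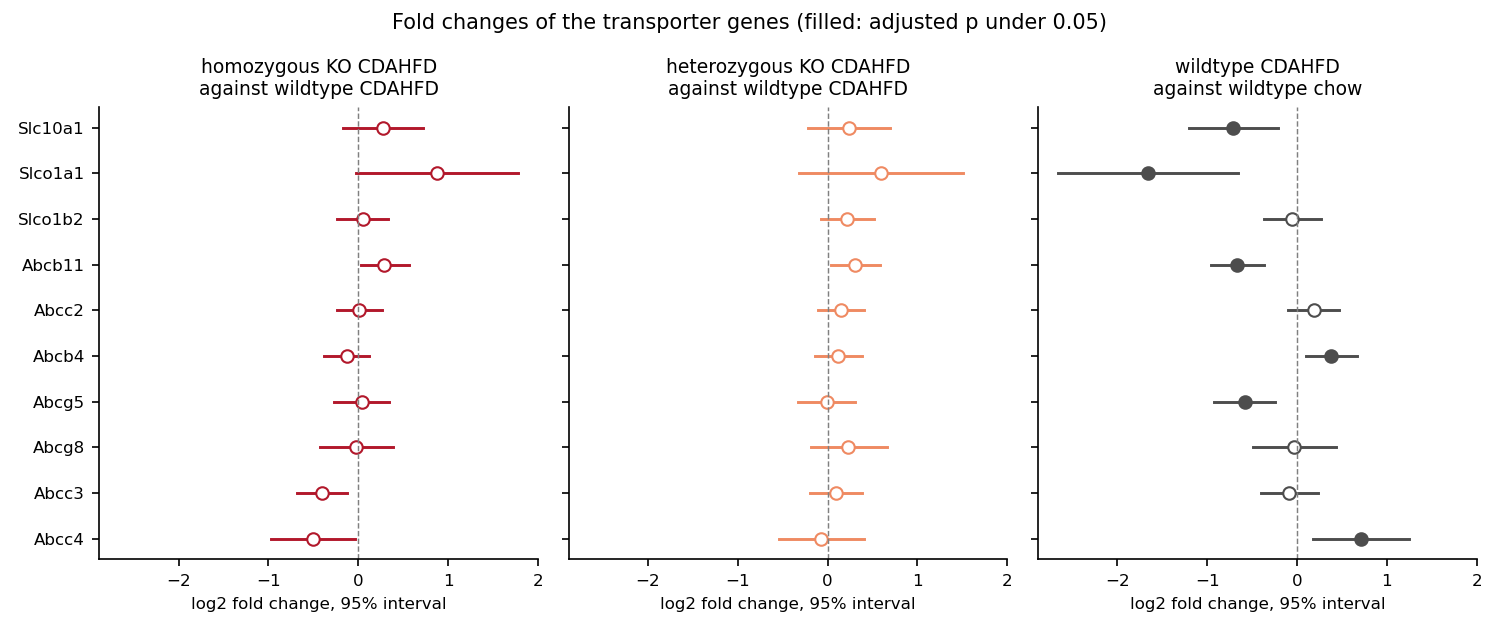
Log2 fold changes with 95% intervals (x axis) of the 10 transporters (rows) for homozygous knockout against wildtype CDAHFD, heterozygous knockout against wildtype CDAHFD and wildtype CDAHFD against wildtype chow, from the fit on all 26 libraries. Filled points have an adjusted p under 0.05, which 6 transporters reach for the diet and 0 for either genotype.

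In heterozygous against wildtype CDAHFD livers, edgeR called 0 of the 10 and 0% of all genes, Mtarc1 included (-0.55 ± 0.15, edgeR adjusted p = 0.5693). At an unadjusted p under 0.05 there was 1 transporter, against 8.44% of all genes, and DESeq2 and limma voom called 0. That transporter was Abcb11, at 0.31 ± 0.13 (edgeR adjusted p = 0.5693), with 6 of 7 heterozygous libraries above the wildtype CDAHFD mean. Abcc3 stood at 0.09 (95% interval -0.20 to 0.38) and Slco1a1 at 0.59 (-0.32 to 1.51). Slc10a1 stood at 0.24, Abcg8 at 0.23, Slco1b2 at 0.22, Abcc2 at 0.15, Abcb4 at 0.12, Abcg5 at -0.01 and Abcc4 at -0.07. Within the 9000 and 11000 series, the differences of means were 0.90 and -0.31 for Slc10a1 and 0.57 and -0.12 for Abcg8. They were -0.54 and 0.30 for Abcc4, 0.49 and -0.01 for Slco1b2 and -0.10 and 0.28 for Abcb4, but 0.36 and 0.25 for Abcb11. The 2 genotype comparisons and the diet comparison share the 6 wildtype CDAHFD libraries, so their fold changes are not independent.

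Between homozygous and heterozygous livers, 0 of the 10 were called by edgeR, DESeq2 or limma voom, against 0.00585% of all genes by edgeR. The unadjusted p was under 0.05 for 2 of the 10, against 7.13% of all genes. Abcc3, at -0.50 ± 0.13 (edgeR adjusted p = 0.3386), was below the heterozygous mean in 8 of 8 homozygous libraries, and its difference was -0.49 in the 9000 and -0.43 in the 11000 series. Abcb4 stood at -0.25 ± 0.12 (edgeR adjusted p = 0.6973), with 7 of 8 homozygous libraries below the heterozygous mean.

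Set against chow livers, the knockout groups on CDAHFD had 3 and 5 transporters called. The chow livers were all wildtype, so diet and genotype differ together here and their parts cannot be told apart. In homozygous livers Abcg5 (-0.54 ± 0.16), Abcc3 (-0.49 ± 0.14) and Abcb11 (-0.37 ± 0.13) were lower, with edgeR adjusted p of 0.0128, 0.01385 and 0.04423, where 23.1% of all genes were called, 10.8% lower and 12.3% higher. In heterozygous livers Abcg5 (-0.59 ± 0.16) and Abcb11 (-0.36 ± 0.14) were lower and Abcb4 (0.50 ± 0.13), Abcc4 (0.64 ± 0.25) and Abcc2 (0.34 ± 0.13) were higher, with edgeR adjusted p of 0.005491, 0.04318, 0.004886, 0.04728 and 0.04745, where 37.2% of all genes were called, 17.9% lower and 19.3% higher. All 7 heterozygous libraries were above the chow range for Abcb4 and below it for Abcg5, as for 7.57% and 6.1% of all genes. Slc10a1 was not called in either (-0.43 and -0.47, edgeR adjusted p = 0.1681 and 0.1108). These 2 comparisons and the diet comparison in wildtype share the 5 chow libraries.

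The Abcg5 calls in both knockout groups, and the Abcb4 call in heterozygous livers, held with each of the 26 libraries left out. The Abcc3 call in homozygous livers was lost without chow replicate 1 (edgeR adjusted p = 0.0559). The Abcb11 call in homozygous livers was lost without any of chow replicates 2 to 5, wildtype CDAHFD replicate 1 or homozygous replicates 1, 2, 3, 4 and 8, with edgeR adjusted p up to 0.102. In heterozygous livers it was lost without any of chow replicates 2 to 5 or heterozygous replicates 1, 2, 3 and 5, with edgeR adjusted p up to 0.0941. The Abcc2 and Abcc4 calls in heterozygous livers were each lost in 15 of 26 cases, with edgeR adjusted p up to 0.166 and 0.130. For Abcc2 these were chow replicates 2, 4 and 5, wildtype CDAHFD replicates 1, 2, 3, 5 and 6, heterozygous replicates 2, 3, 5 and 7 and homozygous replicates 2, 3 and 6. For Abcc4 they were chow replicates 1, 2, 3 and 5, wildtype CDAHFD replicates 1, 2 and 4, heterozygous replicates 2 to 7 and homozygous replicates 2 and 7.

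Other genes of the same pathways were counted on the diet in wildtype liver, in lists that share some members with the transporters, beside the 27.1% called among all genes. The nuclear receptors (2 of 16) and the canalicular trafficking genes (3 of 14) had smaller shares called, and no list was tested against all genes. Of 16 further hepatobiliary transporters tested, 5 were higher and 1 lower. The cholesterol exporter Abcg1 (1.01 ± 0.14), the conjugate exporter Abcc1 (1.08 ± 0.24) and the drug pumps Abcb1b (1.37 ± 0.37) and Abcb1a (0.88 ± 0.30) were higher, with edgeR adjusted p of 1.18e-05, 0.001142, 0.00741 and 0.03053. Abcb1a and Abcb1b are near copies whose reads can be split between them. Of 15 genes of bile acid synthesis and conjugation, 6 were lower and 1 higher. Cyp27a1, which oxidises the sterol side chain, fell by 1.12 ± 0.12 (edgeR adjusted p = 5.24e-07), to 194 to 264 CPM in wildtype CDAHFD livers, against 405 to 552 CPM in chow livers. Hsd3b7 (-0.65 ± 0.16), a ring-modifying enzyme, and Slc27a5 (-0.73 ± 0.22), which couples bile acids to coenzyme A, were lower, with edgeR adjusted p of 0.003904 and 0.01455. Ch25h, a cholesterol hydroxylase that is very scarce here (at most 0.778 CPM in wildtype CDAHFD and 0.158 CPM in chow livers), was higher.

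Of 16 nuclear receptors and liver transcription factors, 2 were lower and 0 higher by edgeR, with 4 at an unadjusted p under 0.05. They were Nr0b2 (-0.96 ± 0.26), the FXR-induced repressor SHP, and Nr3c1 (-0.24 ± 0.07), the glucocorticoid receptor, with edgeR adjusted p of 0.006466 and 0.01704. Of 9 FXR targets, which include Abcb11 and Abcb4, 4 were lower and 2 higher. The plasma protein gene Fetub (-0.73 ± 0.14) and the phospholipid transfer gene Pltp (-1.08 ± 0.18) were lower and the apolipoprotein gene Apoc2 (0.72 ± 0.13) was higher, with edgeR adjusted p of 3.80e-04, 6.13e-05 and 1.67e-04. Of 10 LXR targets, which include Abcg5, Abcg8, Abcg1 and Pltp, 4 were lower and 1 higher, and the desaturase Scd1 fell by 3.49 ± 0.43 (edgeR adjusted p = 2.88e-06).

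Of 10 CAR and PXR targets, 4 were lower and 0 higher by edgeR, with 4 at an unadjusted p under 0.05. They were the esterase Ces2a (-2.45 ± 0.24) and the P450 genes Cyp2b10 (-2.58 ± 0.31), Cyp3a11 (-1.22 ± 0.17) and Cyp2c29 (-1.20 ± 0.41), with edgeR adjusted p of 9.27e-08, 1.57e-06, 8.28e-06 and 0.03118. Of 12 NRF2 targets, which include Abcc3 and Abcc4, 7 were higher and 1 lower. Heme oxygenase Hmox1 (1.68 ± 0.17), sulfiredoxin Srxn1 (1.77 ± 0.23), the transferase Gsta1 (4.43 ± 0.80) and the quinone reductase Nqo1 (0.85 ± 0.22) were higher, with edgeR adjusted p of 2.15e-07, 4.24e-06, 2.20e-04 and 0.004857. Of 14 genes of the canalicular membrane and its trafficking, 2 were lower, the junction protein gene Cgn (-0.76 ± 0.14) and the flippase subunit gene Tmem30a (-0.43 ± 0.13), and 1 higher, Stx3 (0.34 ± 0.11), with edgeR adjusted p of 1.87e-04, 0.01499 and 0.02545. In homozygous or heterozygous against wildtype CDAHFD livers, edgeR called 0 genes of these 8 lists, with 1 to 4 genes a list at an unadjusted p under 0.05 in homozygous and 0 to 2 in heterozygous livers. Hmox1 and Abcg1 stood at -0.44 ± 0.14 and -0.37 ± 0.12 in homozygous livers (edgeR adjusted p = 0.2802 and 0.2814).

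Cell type markers were counted in the same way, beside the same 27.1%. Of 6 hepatocyte markers tested, of 7 listed, 5 were lower, with a median of -0.58, and their summed level ran from 57810 to 92783 CPM in wildtype CDAHFD and 92680 to 119586 CPM in chow livers. Of 8 macrophage markers, 7 were higher, and their sum ran from 423 to 635 CPM in wildtype CDAHFD and 192 to 349 CPM in chow livers, without overlap. Of 7 cholangiocyte markers tested, 1 was higher and 1 lower. Their sum ran from 103 to 218 CPM in wildtype CDAHFD and 86.7 to 125 CPM in chow livers, and the defining marker Krt19 from 1.35 to 3.43 CPM in wildtype CDAHFD and 2.27 to 4.12 CPM in chow livers. Of the stellate, endothelial and lymphocyte markers, 1 of 6, 0 of 6 and 1 of 4 were higher and 0 lower by edgeR, with 1, 0 and 1 at an unadjusted p under 0.05. Of 3 markers of small intestine tested, 1 was higher, Fabp2, at 107 to 166 CPM in wildtype CDAHFD and 44.5 to 55.2 CPM in chow livers, while Fabp6 was at 0 in wildtype CDAHFD and at most 0.158 CPM in chow livers. The share of counts from the mitochondrial genome averaged 10.09% in wildtype CDAHFD and 13.13% in chow livers. With mitochondrial genes left out, a setting chosen after seeing the data, the same number, 6, of the transporters were called on the diet. The part of the marker changes in the transporter results was not tested.

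Within each gene's pattern over the 26 libraries, the closest genes among 13939 with a mean of at least 1 CPM were named by Pearson's r of log2 CPM, as a description over libraries that share depth and group differences. Slc10a1 ran closest to Shmt1 (r = 0.94) and Serpina1d (0.93), Slco1a1 to Hsd3b5 (0.94) and Cyp4f14 (0.82) and Slco1b2 to Fech and Akr1c12 (0.92 each). Abcb11 ran closest to Avpr1a (0.88) and Abca2 (0.87), Abcc2 to Abcb1a and Nhlrc2 (0.84 each), Abcb4 to Sptan1 (0.86), Abcg5 to Cyp4f15 (0.90) and Gm34667 (0.85) and Abcg8 to Ugt1a1 (0.90) and Acsm3 (0.88). Abcc3 had the weakest likeness, to Slc1a2 (0.76) and Diaph2 (0.75), and Abcc4 ran closest to Cbr3 (0.84) and Igsf8 (0.82). Among the transporters themselves, with group means removed, Slc10a1, Slco1b2 and Abcg8 were the closest, at r = 0.80 for each pair. Abcc3 followed, at 0.74 with Abcc2, 0.74 with Abcg8 and 0.71 with Slco1b2. Abcg5 with Abcg8 and Abcb4 with Abcc4 reached 0.63 each. Slco1a1 and Abcc4 ran most against each other, at -0.50.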

How the data were processed

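Total RNA from mouse liver was made into libraries with the NEBNext Ultra II kit, per the labels' protocols. The authors deposited estimated counts per gene, which need not be whole. Cutadapt 3.5, Salmon 1.4.0 and the builds GRCm39 and mm39 are named, per the submitters' processing notes. The sources used here do not state how transcripts were summed to genes. Symbols came from the GENCODE annotation of GRCm38, which matched 92.5% of IDs. Its coordinates, named as such, are used for gene positions, lengths and overlaps.

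Counts were rounded and fitted in edgeR 4.0.16 under R 4.3.3 (TMM, filterByExpr, robust quasi-likelihood, Benjamini-Hochberg over 17104 genes, 1 fit on 26 libraries). SE is the absolute log2 fold change over the square root of F. CPM uses TMM-scaled library sizes, and CPM per kilobase uses the union of annotated exons. The procedure was tested on simulated data. There, 52.2% to 62.7% of 1.5-fold changes and 80.6% to 88.1% of 2-fold changes were called in the right direction, depending on the comparison. Changes of 1.5-fold can therefore be missed. Alternatives were RLE scaling, raw totals, no filter, DESeq2 1.42.0, limma 3.58.1 voom, a library series covariate, 2-group fits, a replicate block and each library left out. Counting error is a lower limit on the error, and each library holds at least 30 counts of every transporter.

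Members and lists were chosen with earlier results of these data known. Named genes are all 10 transporters, up to 4 called genes with the lowest p on the diet per list, Mtarc1, defining cell markers and the 2 genes most like each transporter, of which 1 is not reported here. Hmox1 and Abcg1 in homozygous livers were given as list genes named on the diet.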

Additional observations from a re-analysis of the deposited data

How the results depend on the processing

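The count of transporters called on the diet in wildtype liver was 6, and 5 or 6 under RLE scaling, raw totals, no low count filter, DESeq2, limma voom, the series covariate, the 2-group fit and with mitochondrial genes left out. Over all genes these settings gave 3793 (no low count filter) to 6072 calls (raw totals), against 4630. In the 11000 series alone the transporter count was 1. For homozygous and heterozygous livers against chow it was 0 and 2 there, against 3 and 5 in the full data. Calls over all genes fell there too, to 2263 on the diet and to 2952 and 4292 against chow. With both series they were 4630, 3955 and 6361. Without the low count filter the heterozygous transporter count was 2, where 5373 of 32904 genes were called. With each library left out the transporter count ranged from 3 to 6 on the diet, from 2 to 3 for homozygous and from 2 to 6 for heterozygous livers against chow. It was 3 on the diet without chow replicate 1, 2 or 3 or wildtype CDAHFD replicate 1. Without chow replicate 1, 4402 of 17362 genes were called on the diet. In heterozygous livers the transporter count was 2 without chow replicate 2 or 5 or heterozygous replicate 2, 3 or 5. It was 3 without chow replicate 3, wildtype CDAHFD replicate 1 or 2, heterozygous replicate 7 or homozygous replicate 2. Over all genes, DESeq2 called 47 genes in homozygous and 3 in heterozygous against wildtype CDAHFD livers, against 1 and 0 with edgeR, and 15 between homozygous and heterozygous livers, against 1. In the 3 comparisons between genotypes the transporter count was 0 under every alternative run. The reason for these changes was not tested. The 11000 series holds fewer libraries (17), which cannot be told apart there from a difference between the series.

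Of 600 fold changes under the other settings, 29 lost and 7 gained a call, 16 of those called under neither setting moved by more than their SE, and 548 did none of these. Of 1560 with a library left out, 70 lost and 2 gained a call. The sign changed in 29 of the first and 52 of the second, all of them differences called under neither setting, and 0 differences called under either setting changed sign. In the 11000 series alone Slc10a1 stood at -0.09 in homozygous and -0.30 in heterozygous against wildtype CDAHFD livers, against 0.27 and 0.24 in the full data.

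The deviations of same-numbered libraries had mean correlations of -0.03 to 0.11, against -0.02 to 0.00 for other numbers. In none of the 6 pairs of groups did every number exceed 0.1. A library was most like the one of its own number in 4 of 6 cases for heterozygous with wildtype CDAHFD livers. In the other pairs of groups this held for 2 or 3 libraries. With 5 to 7 numbers in a pair of groups, these values cannot decide if the sample numbers pair the libraries. With the number as a replicate block, 5 transporters were called on the diet, 3 and 5 against chow and 0 between genotypes. Over all genes the block gave 4465 calls on the diet and 3119 and 5744 against chow. Slc10a1 was then not called on the diet (-0.67, edgeR adjusted p = 0.0782). Abcc4, at 30 to 146 counts per library, is the transporter most limited by depth.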
